A study of Mus musculus with 4 samples.

Results

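The cells described here are the cycling cells of gonadal white adipose tissue (gWAT) from aged mice, taken from every lineage together. A cell was counted as cycling when its UMIs (unique molecular identifiers, which count captured transcripts) of Mki67 and Top2a summed to 3 or more with both genes detected. Of 14982 cells that passed the quality limits, 700 were cycling (4.67%). Single-cell RNA sequencing (scRNA-seq) had been performed on the stromal vascular fraction (SVF) of 18-month-old male p16-CreERT2/R26-LSL-tdTomato mice. In these mice tamoxifen, given daily until 2 weeks before the tissue was taken, lets a Cre enzyme driven by the p16 (Cdkn2a) promoter switch on the red protein tdTomato, and the switched allele is inherited by daughter cells. All animals carried both alleles and received tamoxifen. Sorting used tdTomato and CD45, which leukocytes carry on their surface. It gave 2 Tom+ libraries of p16-high cells (labelled CD45- and CD45+) and 2 Tom- libraries of p16-low cells (labelled likewise). The CD45+ Tom- library is named from its title, since the sorting text of the labels lists CD45- Tom- in its place. How many mice were pooled in each is not given in the sources used here.

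Before dividing, a cell passes from G1, where D-type cyclins with CDK4 and CDK6 inactivate the retinoblastoma proteins and release E2F, into S phase, where origins are licensed and fired, forks copy DNA and histones are made to package it. In G2 and M phase, cyclins A and B with CDK1, the Aurora and Polo kinases, kinetochores and kinesins build the spindle and separate the chromosomes, and the anaphase-promoting ubiquitin ligase ends mitosis. Mki67 encodes Ki-67, which coats mitotic chromosomes and marks proliferating cells, and Top2a encodes the topoisomerase that untangles replicated DNA. CDK inhibitors such as p16 hold cells in G1. In adipose tissue, resident macrophages, lymphocytes and PDGFRa+ adipose progenitor cells (APCs) can all divide.

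The 700 cells lay in the libraries as 284 of 4145, 114 of 4038, 145 of 1981 and 157 of 4818 cells, where the CD45- Tom+ library comes first and is followed by CD45- Tom-, then CD45+ Tom+ and last CD45+ Tom-, an order kept throughout. Each group was 1 library. There were therefore no replicates, no difference has a test, and all 95% intervals cover counting error only. The median cycling cell held 38838 UMIs, against 19220.5 in the other cells. Transcripts of tdTomato followed the label, at 632 and 668 CPM (UMIs of a gene scaled to a common total of all UMIs in the cells summed) in cycling cells of the Tom+ libraries and 16.1 and 26.7 CPM in those of the Tom- libraries. The CD45 label did not: Ptprc, the CD45 gene, was detected in 93.7, 73.7, 91.0 and 81.5% of the cycling cells, against 27.9, 20.7, 16.5 and 16.7% of non-cycling Pdgfra gate cells, and the libraries are named below by their labels only. Pairs of libraries shared between 26 and 4394 barcodes, of which 1 to 21 were kept cells in both, and no barcode was a cycling cell in both.

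Promoters of the genes that came up most in these cells are shown here to display the short motifs that such promoters carry. TTTGAA is the letter core of the cell cycle homology region, bound in G2 and M phase genes by the DREAM and MuvB complexes, CCAAT is bound by NF-Y, and TTTCCCGC and TTTGGCGC are E2F letter strings. In capitals are matches on either strand, which can overlap, as CCAAT and its reverse complement do in Ube2c. Each window is the RefSeq promoter on GRCm38.p6, from 250 bases before to 50 bases after the annotated start, written along the gene. The genes were chosen after their values were seen.
Mki67, chr7:135716330-135716629, minus strand: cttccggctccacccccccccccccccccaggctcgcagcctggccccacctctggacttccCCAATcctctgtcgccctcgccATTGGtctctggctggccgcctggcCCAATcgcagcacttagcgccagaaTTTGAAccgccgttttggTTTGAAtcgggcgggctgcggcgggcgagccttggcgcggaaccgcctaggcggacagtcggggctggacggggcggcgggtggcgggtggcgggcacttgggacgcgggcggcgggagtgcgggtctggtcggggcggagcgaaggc
Top2a, chr11:99024140-99024439, minus strand: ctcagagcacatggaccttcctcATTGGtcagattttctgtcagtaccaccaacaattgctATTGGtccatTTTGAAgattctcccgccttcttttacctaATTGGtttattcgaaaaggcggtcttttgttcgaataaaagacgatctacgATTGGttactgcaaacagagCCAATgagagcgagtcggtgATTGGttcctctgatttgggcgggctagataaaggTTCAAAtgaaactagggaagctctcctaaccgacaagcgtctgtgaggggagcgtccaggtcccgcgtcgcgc
Ccnb2, chr9:70421505-70421804, minus strand: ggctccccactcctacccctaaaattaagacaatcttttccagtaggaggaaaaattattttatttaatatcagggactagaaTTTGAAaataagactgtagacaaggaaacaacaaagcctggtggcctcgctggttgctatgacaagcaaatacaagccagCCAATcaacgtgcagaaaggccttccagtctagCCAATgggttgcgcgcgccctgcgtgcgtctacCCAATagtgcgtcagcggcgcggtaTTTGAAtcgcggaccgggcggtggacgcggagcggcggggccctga
Cenpf, chr1:189688037-189688336, minus strand: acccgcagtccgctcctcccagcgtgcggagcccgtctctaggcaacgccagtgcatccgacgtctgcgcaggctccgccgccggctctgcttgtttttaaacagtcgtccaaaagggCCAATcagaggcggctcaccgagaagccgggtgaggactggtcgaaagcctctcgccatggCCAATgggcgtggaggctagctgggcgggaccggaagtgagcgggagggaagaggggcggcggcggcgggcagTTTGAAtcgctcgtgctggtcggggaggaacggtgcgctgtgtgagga
Ube2c, chr2:164769679-164769978, plus strand: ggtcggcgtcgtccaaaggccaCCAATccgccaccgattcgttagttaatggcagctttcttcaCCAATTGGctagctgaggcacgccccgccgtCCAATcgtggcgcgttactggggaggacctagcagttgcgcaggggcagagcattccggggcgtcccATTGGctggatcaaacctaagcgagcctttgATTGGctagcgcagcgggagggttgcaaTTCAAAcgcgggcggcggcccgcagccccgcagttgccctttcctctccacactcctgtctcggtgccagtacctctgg
Mcm5, chr8:75109259-75109558, plus strand: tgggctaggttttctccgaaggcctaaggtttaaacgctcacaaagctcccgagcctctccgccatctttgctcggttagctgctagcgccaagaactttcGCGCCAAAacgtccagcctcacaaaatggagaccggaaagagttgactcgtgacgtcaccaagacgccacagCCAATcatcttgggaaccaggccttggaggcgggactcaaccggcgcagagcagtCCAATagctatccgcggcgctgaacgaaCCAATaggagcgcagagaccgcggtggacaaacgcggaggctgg
Pclaf, chr9:65890073-65890372, plus strand: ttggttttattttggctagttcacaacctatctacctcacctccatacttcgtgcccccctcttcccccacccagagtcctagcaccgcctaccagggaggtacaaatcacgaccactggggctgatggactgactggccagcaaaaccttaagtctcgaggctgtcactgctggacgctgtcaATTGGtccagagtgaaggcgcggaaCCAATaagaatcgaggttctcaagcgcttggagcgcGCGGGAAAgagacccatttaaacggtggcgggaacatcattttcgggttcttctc

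TTTGAA stood in 90% of the 20 promoters of the kinesin and cytokinesis genes and in 65.3% of the 49 promoters of the G2M list, against 17.1% of the 35 promoters of the S-phase list and 17.9% of all 32851 promoters of the table. CCAAT stood in 73.5% of the G2M promoters and 71.4% of the S-phase promoters, against 37.4% of all promoters. The E2F strings stood in 31.4% of the S-phase promoters, 4.08% of the G2M promoters and 1.56% of all. Of the printed promoters, the mitotic genes Ccnb2, Cenpf and Ube2c hold TTTGAA and CCAAT, while Mcm5, a subunit of the replicative helicase, and Pclaf, a PCNA-binding protein of the replication fork, hold CCAAT and an E2F string. Not all follow it: Rrm2 and Uhrf1, also replication genes, hold CCAAT but neither TTTGAA nor an E2F string. Birc5, of the mitotic kinase list, holds none of these motifs. No promoter of a replication-dependent histone gene was matched. These matches are letters in a window and were not tested as binding sites.

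The threshold that chose the cells was low, and the cells differed widely above it. Of the 700 cells, 183 held 3 to 5 UMIs of Mki67 and Top2a, 114 held 6 to 10, 107 held 11 to 20 and 296 held over 20. Among Csf1r gate cells, the median level of the G2M list, which contains neither gene, was 673 CPM at 0 UMIs, 1165 CPM in cycling cells with 3 to 5 UMIs, 2713 CPM with 6 to 10 and 8600 CPM with over 20. For the Mzb1 gate the same medians were 313, 362, 565 and 4399 CPM. Cells just inside the limit (a sum of 3, n = 90) had a median G2M level of 661 CPM, close to the 703 CPM of cells just outside it (a sum of 2 with both genes detected, n = 122). Another 430 cells had a sum of 2 from 1 gene only, at 596 CPM. A further 269 cells had 3 or more UMIs with Top2a at 0, and 65 had Mki67 at 0. The genes of the rule themselves read 535, 517, 519 and 511 CPM (Mki67) and 499, 486, 421 and 386 CPM (Top2a) in cycling Csf1r gate cells of the 4 libraries. In the Mzb1 gate Mki67 read 393, 469 and 544 CPM in CD45- Tom+, CD45+ Tom+ and CD45+ Tom-, and Top2a 151, 168 and 299 CPM.

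**Figure D1:**
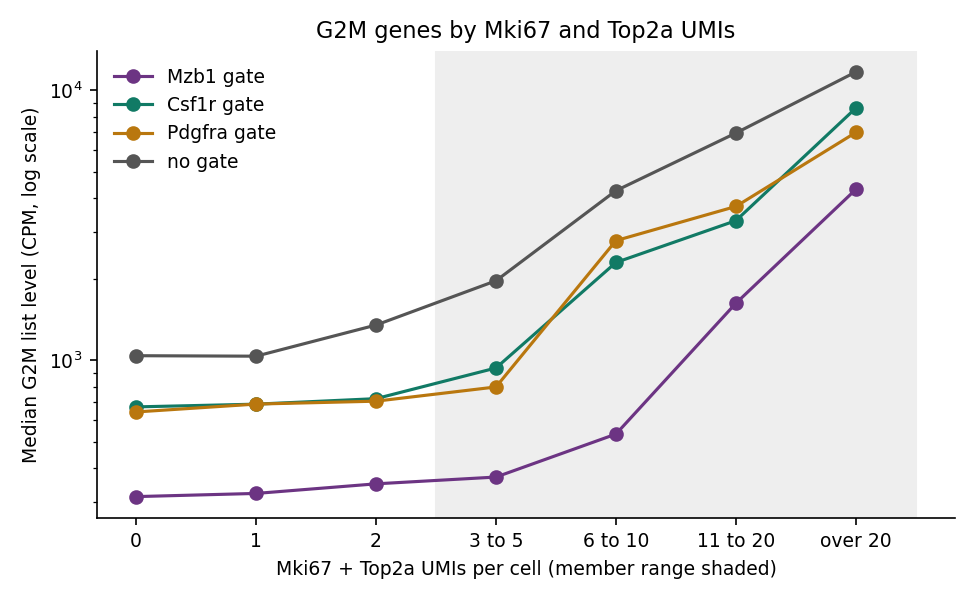
Median G2M list level in CPM (log axis) of cells binned by their Mki67 and Top2a UMIs, for 3 lineage gates and for cells in no gate; the shaded bins cover the member range, and here hold all cells of a bin, also those with only 1 of the genes. Between 0 and 2 UMIs the medians go from 673 to 722 CPM in the Csf1r gate, and in the bin of 6 to 10 UMIs they stand at 2306 CPM there but at 534 CPM in the Mzb1 gate.

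Lineages were read from UMI limits on their defining genes: Pdgfra (2 or more, APCs), Csf1r (2 or more, the receptor that macrophages need), Cd3e (1 or more, T cells), Cd79a (3 or more, B cells), Mzb1 (10 or more, antibody-secreting cells) and Upk3b with Msln (6 or more, mesothelium). Cells that passed both Cd79a and Mzb1, as 165 of the cycling Mzb1 gate cells did, were counted with Mzb1. The gates were compared with marker lists: 184 of 184 cycling Csf1r gate cells had 2 or more UMIs of at least 3 macrophage markers, as had 37 of 37 Pdgfra gate cells for APC markers, 174 of 177 Mzb1 gate cells for plasma cell markers and 23 of 26 Cd3e gate cells for T cell markers. The APC list holds Pdgfra and the T cell list Cd3e, so the gate gene itself could count as 1 of the 3 markers. These shares are therefore not an independent check of those gates. Plasma cell markers also stood at 3 or more in 96 of 184 cycling Csf1r gate cells and 21 of 37 Pdgfra gate cells (52.2 and 56.8%), against 37.2 and 23.1% of non-cycling cells. The median summed levels were 678 and 357 CPM there, against 24041 CPM in the Mzb1 gate.

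The Mzb1 gate held the highest share of cycling cells, 177 of 1371 (12.9%). The Csf1r gate followed with 184 of 2627 (7.004%), then the Cd3e gate with 26 of 1081 (2.41%), the Upk3b and Msln gate with 6 of 342 (1.75%), the Pdgfra gate with 37 of 4036 (0.917%) and the Cd79a gate with 3 of 749 (0.401%). Antibody-secreting cells and macrophages thus made up most of the cycling cells that passed 1 gate. Neutrophils, which do not divide after they leave the marrow, gave the background: cells in no gate with neutrophil markers had 0 of 193 cycling, which allows a share of up to 1.55%, at a median of 3946 UMIs. These cells were shallower than those of most gates (medians of 23764 UMIs in the Pdgfra and 28305 in the mesothelial gate), so the limit does not bound the background there.

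In the Mzb1 gate the share was 12.3% (95% interval 10.1 to 14.7) in CD45- Tom+, 15.7% (7.02 to 28.6) in CD45- Tom-, 11.5% (8.61 to 15.1) in CD45+ Tom+ and 23.6% (15.2 to 33.8) in CD45+ Tom-. CD45+ Tom- was the highest, and its interval was apart from those of both Tom+ libraries but not from that of CD45- Tom-. For the Csf1r gate the shares were 7.75% (5.98 to 9.85), 5.49% (3.86 to 7.56), 9.30% (6.63 to 12.6) and 6.34% (4.75 to 8.25), and all 4 intervals overlapped. The Pdgfra gate had 7 of 335, 15 of 1729, 2 of 150 and 13 of 1822 cycling cells (2.09, 0.868, 1.33 and 0.714%), with overlapping intervals. In the Cd3e gate the counts were 8, 5, 4 and 9, and the shares lay between 2.15 and 2.86%.

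Depth moved these shares. When each cell was thinned to 5000 UMIs and 1585 shallower cells were left out, the Mzb1 shares became 3.78, 7.84, 3.19 and 11.4%, the Csf1r shares 3.42, 2.29, 4.70 and 3.11%, and the Pdgfra shares 0, 0.236, 0.671 and 0.222%. The Cd3e gate, whose cells were shallow to begin with, kept 17 of 843 cells (2.02%). At equal total UMIs the interval of the Mzb1 gate (5.59 to 19.9) lay above that of the Csf1r gate (2.002 to 4.59) in CD45+ Tom-, while the intervals of these gates overlapped in the other libraries. Antibody transcripts took 41.3 to 52.7% of the UMIs of non-cycling Mzb1 gate cells, so the depth left for other genes was not equal.

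**Figure D2:**
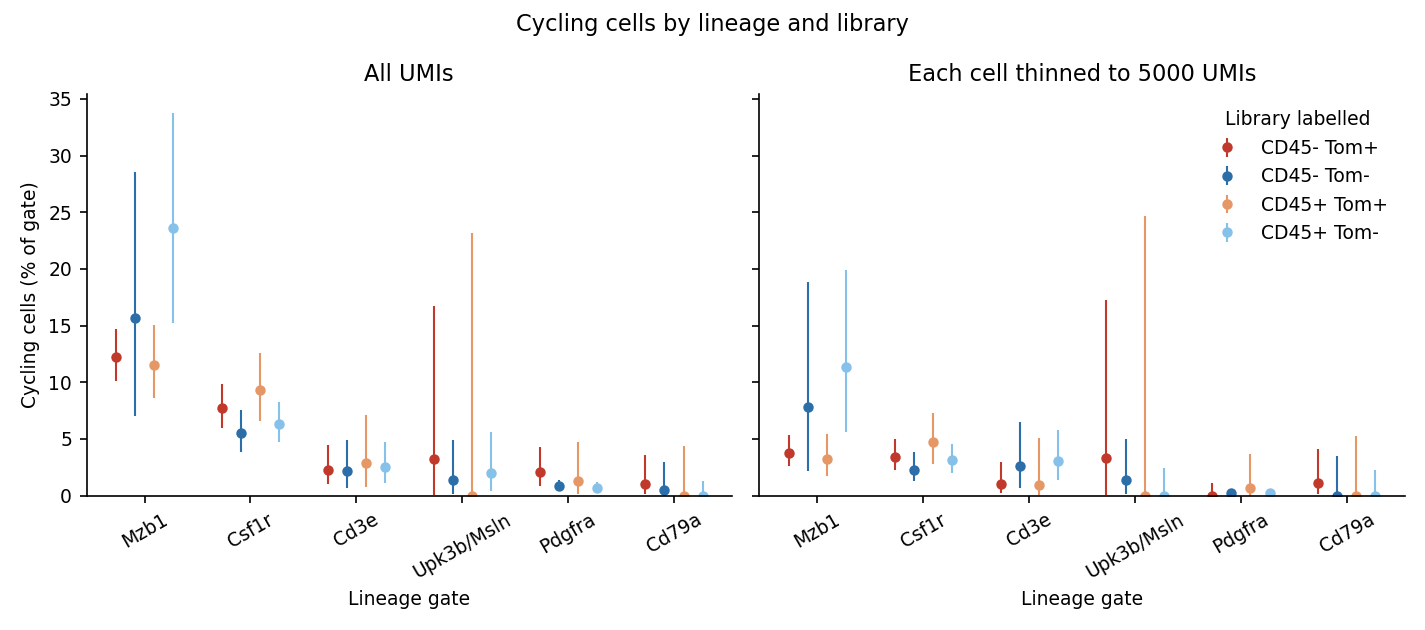
Cycling cells as a percentage of each lineage gate, by library, with exact 95% binomial intervals; left, all UMIs, right, each cell thinned to 5000 UMIs. The Mzb1 and Csf1r gates lie above the others on the left, and thinning lowers the Mzb1 share of CD45- Tom+ from 12.3 to 3.78%.

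Over all lineages the cycling share was 6.85% (6.10 to 7.66), 2.82% (2.33 to 3.38), 7.32% (6.21 to 8.56) and 3.26% (2.78 to 3.80). Both Tom+ libraries were thus above both Tom- libraries, with intervals apart. The libraries also differed in which cells they held: 824 of 4145 and 407 of 1981 cells of the Tom+ libraries were counted with the Mzb1 gate, against 51 of 4038 and 89 of 4818 cells of the Tom- libraries. Given the lineage mix of CD45- Tom+, the cycling shares would be 6.85, 6.18, 7.26 and 7.87%. At the mix of CD45- Tom- they would be 4.57, 2.82, 4.63 and 3.03%. The Mzb1 share of CD45- Tom- that enters here rests on 8 of 51 cells. The order of the libraries therefore depended on the mix used: at the first the 4 libraries lay close together with CD45+ Tom- the highest, and at the second the Tom+ libraries stayed above the Tom- libraries.

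Of the cycling cells, 168 passed several gates, or 8.10% of the 2075 cells that did. The largest sets were Csf1r with Mzb1 (53 of 304 cells cycling), Csf1r with Cd3e (31 of 263), Pdgfra with the mesothelial gate (18 of 498) and Pdgfra with Mzb1 (16 of 153). Scrublet, a doublet score, left out 42.9% of the cycling cells and 22.6% of all cells of several gates when its highest scores were removed. By library it left out 10.6, 43.0, 8.28 and 38.9% of the cycling cells and 6.25, 9.01, 2.73 and 8.86% of all cells. Without the cells of highest score the cycling share was 1.77% in CD45- Tom- and 2.19% in CD45+ Tom-.

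A further 99 cycling cells passed no gate. By at least 3 marker genes at 2 or more UMIs, a threshold set after seeing the data, 24 were conventional dendritic-like, 24 mast cell-like, 13 lymphatic endothelial-like, 7 endothelial-like and 7 APC-like. The conventional dendritic-like cells, named from a list that holds Flt3, Zbtb46, Xcr1 and Clec9a, had a high share: 24 of 105 (22.9%, 15.2 to 32.1), with 3 of 13, 14 of 46, 0 of 6 and 7 of 40 cells cycling in the libraries. After thinning 14 of 102 (13.7%) remained. The mast cell-like share was 24 of 632 (3.80%), and that of lymphatic endothelial-like cells 13 of 174 (7.47%).

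Within each cell, G2M list UMIs were taken as a share of its S-phase and G2M list UMIs together. The median over all 700 cells was 68.2%, close to the 64.7% of non-cycling cells, whose few UMIs of both lists give a similar share. It was 57.4% in the Pdgfra gate, 66.6% in the Csf1r gate, 66.0% in the Cd3e gate, 70.3% in the Mzb1 gate and 75% in cells of no gate, beside 65.6, 61.5, 63.6, 66.7 and 63.2% in non-cycling cells of the same 5 sets. A median therefore does not set cycling cells apart, and only the spread is described. Cycling Csf1r gate cells had quartiles of 40.3 and 85.2%, against 51.9 and 70.6% in non-cycling cells, and 46 of 184 lay under 40%, against 7.10% of non-cycling cells. Of the cycling Mzb1 gate cells 8 of 177 lay under 40%. By library the Csf1r medians were 70.9, 66.1, 61.9 and 62.8% and the Mzb1 medians 67.8, 64.9, 70.9 and 77.8%, and the ranges of single cells overlapped in all 4. No phase was called.

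**Figure D3:**
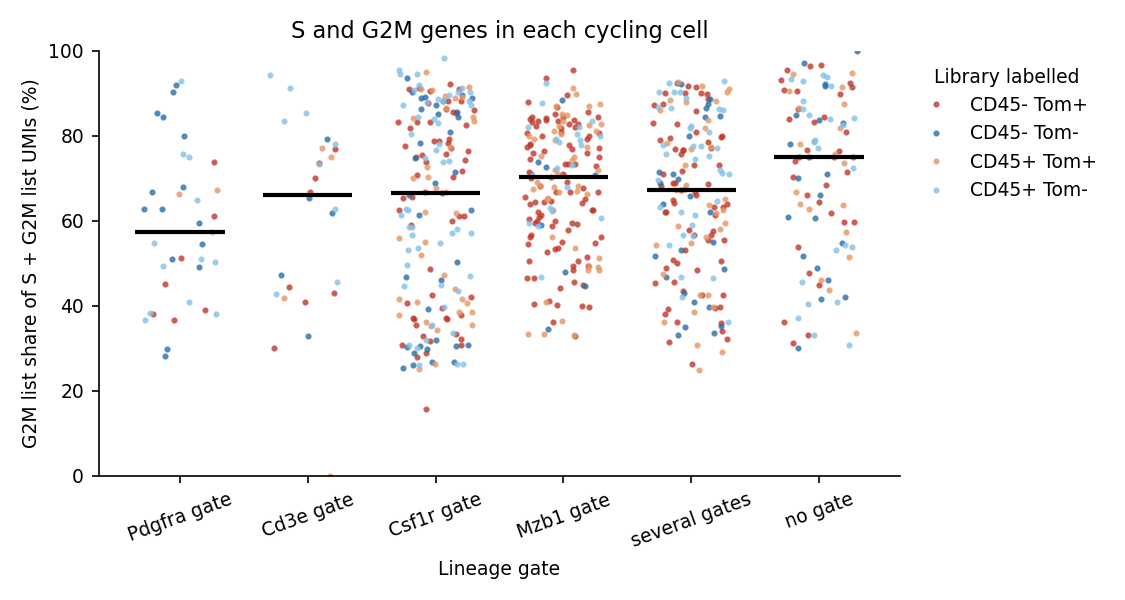
Each dot is 1 cycling cell, placed by the percentage of G2M list UMIs among its S-phase and G2M list UMIs and coloured by library; bars are medians over the cells of a gate, and the sideways position within a gate is random. Csf1r gate cells lie over 75% in 74 and under 40% in 46 of 184 cases, while 8 of 177 Mzb1 gate cells lie under 40%.

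Genes were compared between cycling cells and cells of the same gate and library with 0 Mki67 and 0 Top2a UMIs, called non-cycling. A gene was called raised when its log2 ratio of CPM was at least 1 in every library used, and lowered when at most -1 in every one. Libraries with 20 cycling cells were used, which gave 4 libraries for the Csf1r gate and 3 for the Mzb1 gate. No library had 20 in the Pdgfra or Cd3e gate, so there, after seeing the data, 3 libraries with at least 5 were used. As the cells were chosen by cycle genes, the ratios are descriptions. Over all genes tested, raised were 217 of 5911 in the Csf1r gate (3.67%), 132 of 3003 in the Mzb1 gate (4.4%), 208 of 6135 in the Pdgfra gate (3.39%) and 249 of 5730 in the Cd3e gate (4.35%). Lowered were 16 (0.271%), 2 (0.0666%), 143 (2.33%) and 31 (0.541%). Median log2 ratios over all genes tested were 0.00, 0.42, 0.05 and 0.10.

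At the G1 entry point the counts were mixed. Of the G1 cyclins and kinases, 4 of 7 were raised in the Csf1r gate, 1 of 3 in the Mzb1 gate, 2 of 6 in the Pdgfra gate and 4 of 9 in the Cd3e gate. Cks1b, the small CDK subunit that helps degrade p27, had the highest ratios (log2 3.87, 2.99, 1.63 and 4.29). Ccnd2, a D-type cyclin, was at -0.13, 0.52, -0.80 and -1.28. Among the E2F and pocket proteins, 3 of 7, 1 of 2, 2 of 4 and 6 of 10 were raised. E2f1 was at 1.97, 2.62 and 4.34 in the Csf1r, Pdgfra and Cd3e gates, and Rbl2, the p130 pocket protein of resting cells, at 0.07, 0.13 and -0.07.

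Most genes of replication origins and forks were raised in each gate, with more varied counts for nucleotide synthesis and histone genes. Of the origin licensing and firing genes, 12 of 12, 3 of 3, 11 of 11 and 10 of 13 were raised, with list medians of 2.71, 3.25, 3.41 and 3.12. Clspn, which carries the checkpoint signal at forks, was at 5.13, 3.32 and 4.36 in the Csf1r, Pdgfra and Cd3e gates, and Mcm5, whose promoter is printed above, at 3.64, 5.47 and 3.12. The replication fork list had 13 of 14, 4 of 5, 17 of 17 and 19 of 21 genes raised. Uhrf1, which carries DNA methylation onto the new strand, was highest in the Csf1r, Pdgfra and Cd3e gates (5.54, 6.10 and 5.29). In nucleotide synthesis 11 of 13, 4 of 8, 9 of 13 and 9 of 14 were raised. Rrm2, the regulated subunit of ribonucleotide reductase, read 150, 101, 125 and 123 CPM in cycling Csf1r gate cells of the 4 libraries, against 0.891, 1.73, 1.13 and 2.14 CPM in non-cycling cells. Replicative histone genes ran with them in 5 of 6, 8 of 10, 2 of 5 and 6 of 9 cases. Most such transcripts lack a poly(A) tail and are thinly captured by this kit. Hist1h2bc was the lowest of the list in the Csf1r, Mzb1 and Pdgfra gates, at -0.19, 0.57 and -1.08.

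The widest ratios lay among mitotic genes. Mitotic cyclins and activators were raised in 9 of 9, 5 of 5, 5 of 5 and 7 of 9 cases, with medians of 4.71, 5.37, 4.42 and 3.31. Ccna2, cyclin A2, read 132, 86.2, 120 and 127 CPM in cycling Csf1r gate cells of the 4 libraries, against 0.980, 0.925, 1.503 and 0.268 CPM in non-cycling cells. The kinesin and cytokinesis list, whose promoters held TTTGAA most often, was raised in 11 of 11, 3 of 3, 5 of 5 and 8 of 11 cases (medians 6.12, 4.75, 5.20 and 3.13). Kinetochore and spindle checkpoint genes were raised in 16 of 17, 9 of 9, 7 of 9 and 14 of 17 cases, with Cenpf, a kinetochore protein of late G2, at 7.78, 6.70, 6.94 and 5.19 and Bub3, a checkpoint protein also used outside mitosis, lowest at 0.77, 1.70, 0.70 and 0.90. Mitotic kinase genes were raised in 7 of 7, 2 of 2, 5 of 5 and 4 of 6 cases. Ube2c, the ubiquitin-conjugating enzyme of the anaphase-promoting complex, was at 5.65, 7.16, 4.53 and 4.74, whereas the core subunit Cdc27 was at 0.68, 0.34 and 0.46 in the Csf1r, Pdgfra and Cd3e gates. Condensin and cohesin genes were raised in 10 of 13, 5 of 6, 5 of 9 and 10 of 14 cases, and Pttg1, securin, was the lowest of them in the same 3 gates, at -0.11, -0.79 and 0.14.

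Chromatin and microtubule genes followed at smaller ratios. Histone variants and chromatin genes were raised in 15 of 16, 10 of 13, 11 of 15 and 13 of 18 cases, with medians of 2.27, 1.91, 2.01 and 2.38. Microtubule genes were raised in 11 of 13, 6 of 6, 8 of 12 and 7 of 10 cases, with Hmmr, a spindle protein, at 7.16, 6.83, 6.30 and 5.51. DNA repair and checkpoint genes were low in level: 2, 0, 3 and 8 were tested, and 2, 3 and 6 of them were raised in the Csf1r, Pdgfra and Cd3e gates. Of the growth and biosynthesis genes, 3 of 22, 3 of 22, 1 of 23 and 1 of 22 were raised. Their list medians were 0.42, 0.88, 0.80 and 0.66, above the 0.00, 0.42, 0.05 and 0.10 of all genes tested. Ran, which drives nuclear transport and spindle assembly, was the highest of this list in the Csf1r, Mzb1 and Cd3e gates, at 1.39, 1.92 and 1.99. With every sum of 0 UMIs set to a floor of 3 counts in its library, list medians moved by -0.25 to 0.78, the most for the kinesin list of the Cd3e gate, which became 3.92.

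**Figure D4:**
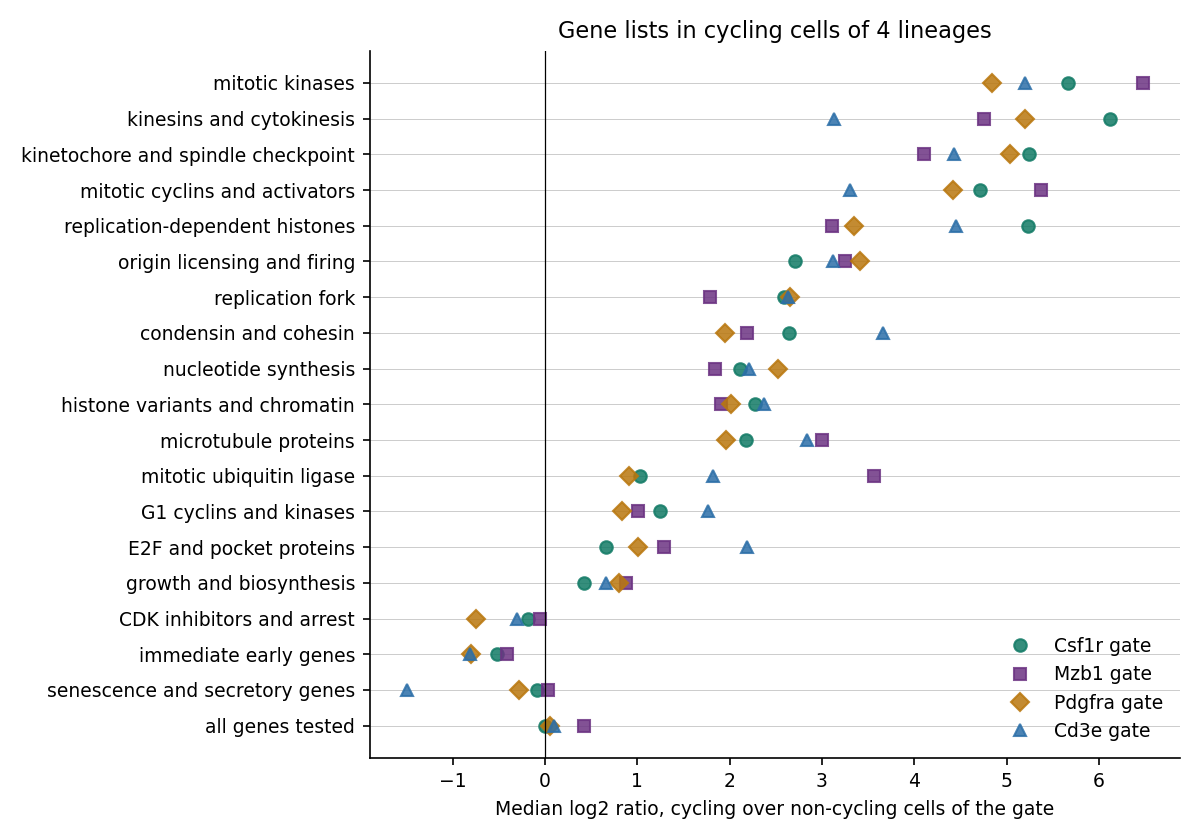
Median log2 ratio of CPM, cycling over non-cycling cells, for each gene list and lineage gate, with the median of all genes tested in the bottom row; each point is a mean over the libraries used. The lists of mitotic cyclins, kinetochore, mitotic kinases and kinesins lie between 3.13 and 6.48, while CDK inhibitors, immediate early genes and secretory genes lie below the median of all genes in each of the 4 gates.

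Genes outside division did not follow. No immediate early gene was raised in any of the 4 gates (of 13, 11, 14 and 12 tested) and 1 was lowered, in the Cd3e gate. The medians were -0.52, -0.41, -0.80 and -0.82. Egr1, a transcription factor switched on within minutes of a stimulus and by tissue digestion, was at -0.92, -0.01, -1.15 and -2.30. Of the senescence and secretory genes none was raised (of 15, 3, 18 and 7 tested) and 1, 0, 2 and 2 were lowered.

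Beyond the cycle lists, cycling Csf1r gate cells had high Pclaf, read at 272, 218, 214 and 298 CPM against 2.67, 2.31, 1.88 and 1.61 CPM in non-cycling cells. Aspm, a spindle pole protein, Knstrn, a kinetochore adaptor, Diaph3, an actin-nucleating formin, and Iqgap3 came next, with mean log2 ratios of 7.06, 4.81, 4.30 and 4.04. The genes that were lowest belong to monocytes and neutrophils. Plac8 read 2.26, 7.66, 2.497 and 7.81 CPM in cycling cells against 28.7, 196, 63.3 and 238 CPM, and S100a9, an alarmin subunit, 3.16, 3.83, 0.832 and 7.81 CPM against 47.8, 207, 60.3 and 264 CPM. S100a8 and Ly6c2, a monocyte surface gene, had lower levels in all 4 libraries as well, with Ly6c2 at 19.9, 0.958, 18.3 and 13.8 CPM against 31.9, 60.7, 45.5 and 86.3 CPM. By cells the gap of Ly6c2 was small: 8.15% of cycling and 9.80% of non-cycling cells held 2 or more UMIs. In CD45+ Tom+ 6 of 37 cells with Ly6c2 were cycling, against 31 of 361 without. In the other libraries the cycling share was lower with Ly6c2. A row of the symbol Ccl21a, which near-identical genes share, was also among the 5 lowest by its mean, but 72.2% of its UMIs lay in 1 cell. For S100a9 and Plac8, cycling cells were lower in each library than non-cycling cells of any library. Monocyte markers stood at 3 or more in 10 of 184 cycling and 278 of 1846 non-cycling cells (5.43 and 15.1%).

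Tissue-macrophage genes were present in most of the cycling cells of the Csf1r gate. At 2 or more UMIs, C1qa, a complement subunit, was found in 90.2% of cycling and 78.1% of non-cycling cells, Trem2, a lipid receptor, in 90.8 and 80.4%, and Mrc1, the mannose receptor CD206, in 75 and 56.5%. Arg1, arginase 1, went the other way (42.9 and 52.4%). Lyve1 and Timd4 are genes of long-lived resident macrophages. With Lyve1 at 2 or more UMIs the cycling shares were 9.38, 8.11, 10.96 and 18.2%, against 7.44, 5.33, 8.92 and 5.47% without. With Timd4, 4 of 32, 0 of 7, 2 of 26 and 7 of 11 cells were cycling, a higher share than in the rest in CD45- Tom+ and CD45+ Tom- and a lower one in the other libraries. Vsig4, also a gene of resident macrophages, was found in 8.15% of cycling and 8.45% of non-cycling cells. With Vsig4 the cycling shares were 5.94, 0, 5.36 and 14.6%, against 8.02, 5.70, 9.94 and 5.89% without, so higher in CD45+ Tom- only. Among cells with Mrc1 at 2 or more UMIs, the cycling shares were 7.95, 6.94, 11.3 and 9.30%, against 7.14, 4.30, 3.09 and 3.44% in the rest. The gap was widest in the CD45+ libraries and small in CD45- Tom+. Cycling cells were deeper (medians of 28143 to 36763 UMIs against 16479 to 20707), and the part of depth in these shares of cells was not tested.

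Cycling Mzb1 gate cells were plasma cell-like by Jchain in 176, Sdc1 in 158 and Irf4 in 157 of 177 cells at 2 or more UMIs. Genes of B cells were present too. At least 3 B cell markers were found in 167 of 177 cycling and 540 of 640 non-cycling cells. Cd79a is on that list, and 165 of the cycling cells also passed the Cd79a limit. Ms4a1, the B cell surface gene CD20, was found in 108 (61.0%), against 46.4% of non-cycling cells. Pax5, of the same list, was found in 9 of 177 (5.08%), against 6.09%. The constant gene of IgM, Ighm, led the heavy chains in all 177 (1360 of 1371 cells of the gate). Antibody transcripts took a smaller share of all UMIs in cycling than in non-cycling cells: 40.1, 27.4, 43.1 and 29.1% against 52.7, 41.3, 52.0 and 45.4%. As this lifts the CPM of every other gene, the median of all genes tested stood at 0.42, and with antibody genes left out of the totals (chosen after seeing the data) 141 genes were raised and 19 lowered. Ube2c read 155, 164 and 284 CPM in CD45- Tom+, CD45+ Tom+ and CD45+ Tom-, against 0.933, 0.842 and 2.23 CPM in non-cycling cells. Bank1, a B cell scaffold protein, read 8.22, 4.09 and 35.3 CPM against 22.2, 16.3 and 114 CPM, lower in each. S100a6 read 43.8, 16.7 and 486 CPM against 196, 149 and 486 CPM, lower in the Tom+ libraries only. The haemoglobin genes that also ranked high came almost all from 1 cell of CD45- Tom+: Hbb-bs had 3506 UMIs in that library and 0 and 2 in the others.

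The antibodies of these cells were of few kinds. In cells with at least 10 UMIs of heavy and of kappa variable (V) genes, a limit chosen after seeing the data, 134 of 162 cycling cells (82.7%) were led by Ighv11-2 with Igkv14-126. This pair is known from B-1a cells, self-renewing B cells of the body cavities, whose IgM binds phosphatidylcholine. By library these were 78 of 95, 4 of 5, 40 of 45 and 12 of 17 cycling cells. In non-cycling cells the pair led 442 of 531 (83.2%). By library it led 82.1, 80, 88.9 and 70.6% of cycling and 84.2, 58.8, 87.7 and 52.6% of non-cycling cells, with overlapping intervals in each. The cycling share among cells with the pair was 12.5, 16.7, 12.5 and 28.6%, and among cells with any other pair 14.9, 9.09, 11.1 and 20.8%, with overlapping intervals in every library. Ighv4-1 with Igkv19-93 led 9 of the 162. Transcripts of Ighv11-2 were present at 35.4, 1.19, 26.4 and 1.59 CPM in non-cycling Pdgfra gate cells, against 1253, 1088, 1237 and 708 CPM in cycling Mzb1 gate cells. Of these Pdgfra gate cells, 2 of 269 in CD45- Tom+ and 2 of 127 in CD45+ Tom+ held 10 or more UMIs. Whether the transcripts were free or came from doublets was not tested.

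The 37 cycling cells of the Pdgfra gate differed from other APCs in more than cycle genes. Pclaf again led, at 153, 291 and 353 CPM in CD45- Tom+, CD45- Tom- and CD45+ Tom- against 1.03, 0.999 and 0.747 CPM. Slfn9, Diaph3, Tcf19, a factor of the G1 to S transition, and Hat1, which acetylates new histone H4, followed. Inmt, an N-methyltransferase, read 0, 17.2 and 3.75 CPM against 126, 196 and 206 CPM, and Il6, the cytokine, 4.25, 84.7 and 35.6 CPM against 321, 483 and 463 CPM. The matrix genes Hmcn2, Mmp11 and Smoc2 were the other low ones, with Smoc2 at 0, 68.9 and 283 CPM against 345, 486 and 465 CPM. Il6 was found at 2 or more UMIs in 10 of 37 cycling cells (27.0%) and 44.3% of non-cycling cells. With Il6, 0 of 112, 7 of 784, 0 of 48 and 3 of 846 cells were cycling, in the order of the libraries. Without it these were 7 of 223, 8 of 945, 2 of 102 and 10 of 976. In CD45- Tom- the cycling share was thus not lower with Il6 (0.893 against 0.847%).

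Other genes were more frequent in cycling Pdgfra gate cells. Cxcl13, a B cell-attracting chemokine, was found at 2 or more UMIs in 18 of 37 (48.6%) against 10.4% of non-cycling cells, Saa3, an acute-phase protein, in 28 (75.7%) against 24.5%, and Krt19, an epithelial keratin, in 8 (21.6%) against 1.76%. Among cells with Cxcl13 the cycling shares were 5 of 65, 6 of 193, 2 of 29 and 5 of 198, and among the rest 2 of 270, 9 of 1536, 0 of 121 and 8 of 1624. The share was thus higher with Cxcl13 in all 4 libraries. Mesothelial markers moved with this: 13 of 37 cycling cells (35.1%) and 132 of 3643 non-cycling cells (3.62%) had 3 or more of them at 2 or more UMIs, with median summed levels of 273 and 153 CPM. Scrublet left out 35.1% of the cycling cells of the gate and 6.96% of all its cells. Their part in the difference was not tested.

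Of the 26 cycling Cd3e gate cells, 13 had Trdc, the constant gene of the gamma-delta T cell receptor, at 2 or more UMIs (50% against 37.0% of non-cycling cells), 6 had Cd8a, 2 had Cd4 and 1 had Foxp3. In CD45+ Tom-, 6 of 70 cells with Trdc and 3 of 289 without it were cycling, and in CD45- Tom- 2 of 49 and 3 of 184, while in CD45- Tom+ and CD45+ Tom+ the share was not higher with Trdc (4 of 212 against 4 of 137, and 1 of 83 against 3 of 57). Pclaf read 370, 644 and 719 CPM in CD45- Tom+, CD45- Tom- and CD45+ Tom-, against 8.53, 4.10 and 3.48 CPM. The lowest genes included Tnfsf8, the CD30 ligand, which had 0, 0 and 1 UMIs in cycling cells against 82, 149 and 415. Cma1 and Cpa3, proteases of mast cells, were also among the 5 lowest by summed CPM, with Cma1 at 89.3, 8.25 and 0 CPM against 888, 206 and 18.3 CPM. By cells this did not hold: Cma1 was found at 2 or more UMIs in 3 of 26 cycling and 63 of 875 non-cycling cells, and Cpa3 in 2 and 20, and the Cpa3 ratio turned to 0.58 after thinning. These sums rest on 8, 5 and 9 cells.

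CDK inhibitors were mixed. Of the list of inhibitors and arrest genes 2 of 14, 0 of 8, 1 of 14 and 0 of 12 were raised and 0, 0, 3 and 0 lowered. Those raised were Cdkn2c and Cdkn3, a phosphatase of CDKs, in the Csf1r gate and Cdkn2a in the Pdgfra gate, and those lowered were Cdkn1c, Gadd45a and Gadd45b. Over 14 pairs of a gate and a library, of which 507 of 6633 genes (7.64%) were higher in cycling cells in all and 35 (0.528%) lower in all, Cdkn2c, which encodes p18 and is an E2F target, was higher in 14 (its mean log2 ratio in the Mzb1 gate turned to -0.17 after thinning), and Cdkn2d, p19Ink4d, in 12. Cdkn3 was higher in 12 and Trp53, the p53 gene, in 13. How many of all genes were higher or lower in fewer than 14 pairs was not counted, so such counts have no background here. Cdkn2c read 99.4, 92.9, 92.4 and 88.4 CPM in cycling Csf1r gate cells against 17.5, 13.4, 14.7 and 12.7 CPM. Btg1, an antiproliferative gene of resting cells, was lower in 14, with intervals apart in 13: in the Csf1r gate it read 537, 550, 350 and 468 CPM against 700, 855, 651 and 850 CPM. Btg2 and Klf4 were each lower in 13. Cdkn1a, which encodes p21, was higher in 6 and lower in 8, and Cdkn1b, which encodes p27, higher in 3 and lower in 11. In the Pdgfra gate Cdkn1c, p57, read 4.25, 30.2 and 15.008 CPM against 62.5, 78.9 and 82.5 CPM, and Gadd45a 4.25, 7.18 and 31.9 CPM against 69.2, 61.3 and 68.4 CPM.

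Cdkn2a, the gene whose promoter drives the Cre enzyme, was higher in cycling cells in 14 of the 14 pairs, with intervals apart in 6. A 3' count cannot tell its products p16Ink4a and p19Arf apart. In the Csf1r gate it read 7.23 (4.13 to 11.7), 7.66 (3.31 to 15.1), 14.98 (8.88 to 23.7) and 10.2 (5.95 to 16.4) CPM in cycling cells. Non-cycling cells read 5.97 (4.63 to 7.58), 1.62 (0.885 to 2.71), 4.70 (3.04 to 6.93) and 4.55 (3.39 to 5.98) CPM. The intervals were apart in CD45- Tom- and CD45+ Tom+ only. In the Mzb1 gate the cycling levels were 9.68, 8.33, 5.11 and 14.9 CPM against 2.94, 6.69, 3.70 and 7.81 CPM, apart in CD45- Tom+ only. These totals include antibody UMIs, whose smaller share in cycling cells lifts the CPM of every other gene, Cdkn2a included.

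The Pdgfra gate had the highest Cdkn2a levels: 34.0 (14.7 to 67.0), 41.6 (27.9 to 59.8) and 39.4 (24.4 to 60.2) CPM in cycling cells of CD45- Tom+, CD45- Tom- and CD45+ Tom-, against 16.7 (13.7 to 20.1), 8.04 (7.16 to 9.01) and 9.30 (8.41 to 10.3) CPM. In both Tom- libraries the intervals were apart. The UMIs came from 4 of 7, 11 of 15 and 4 of 13 cells, and 1 cell held 24.6% of those of the gate. Non-cycling cells of the mesothelial gate, whose markers were more frequent among these cycling cells, read 25.9, 4.05 and 0.805 CPM in the same libraries. In the Cd3e gate the levels rest on 1, 2 and 5 UMIs, at 12.8, 16.5 and 31.5 CPM against 9.48, 4.10 and 1.31 CPM. Of these, the intervals were apart in CD45+ Tom- (10.2 to 73.6 against 0.269 to 3.82).

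Transcripts of tdTomato were lower in cycling cells in 13 of the 14 pairs, with intervals apart in 6 of these. The share of all genes that were lower in 13 pairs was not counted. They come from the switched allele and not from the p16 promoter, so their level is not a measure of that promoter. In the Tom+ libraries tdTomato read 560 and 423 CPM in cycling Csf1r gate cells against 678 and 670 CPM, 627 and 634 CPM in the Mzb1 gate against 685 and 706 CPM, and 374 CPM in the Pdgfra gate of CD45- Tom+ against 736 CPM. The exception was the Mzb1 gate of CD45+ Tom-, at 55.7 (42.5 to 71.7) against 21.2 (12.8 to 33.1) CPM. The share of cells with a tdTomato UMI was nevertheless as high or higher in cycling cells of the Tom+ libraries taken whole (96.8 and 95.2% against 92.0 and 89.7%), which were also deeper.

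**Figure D5:**
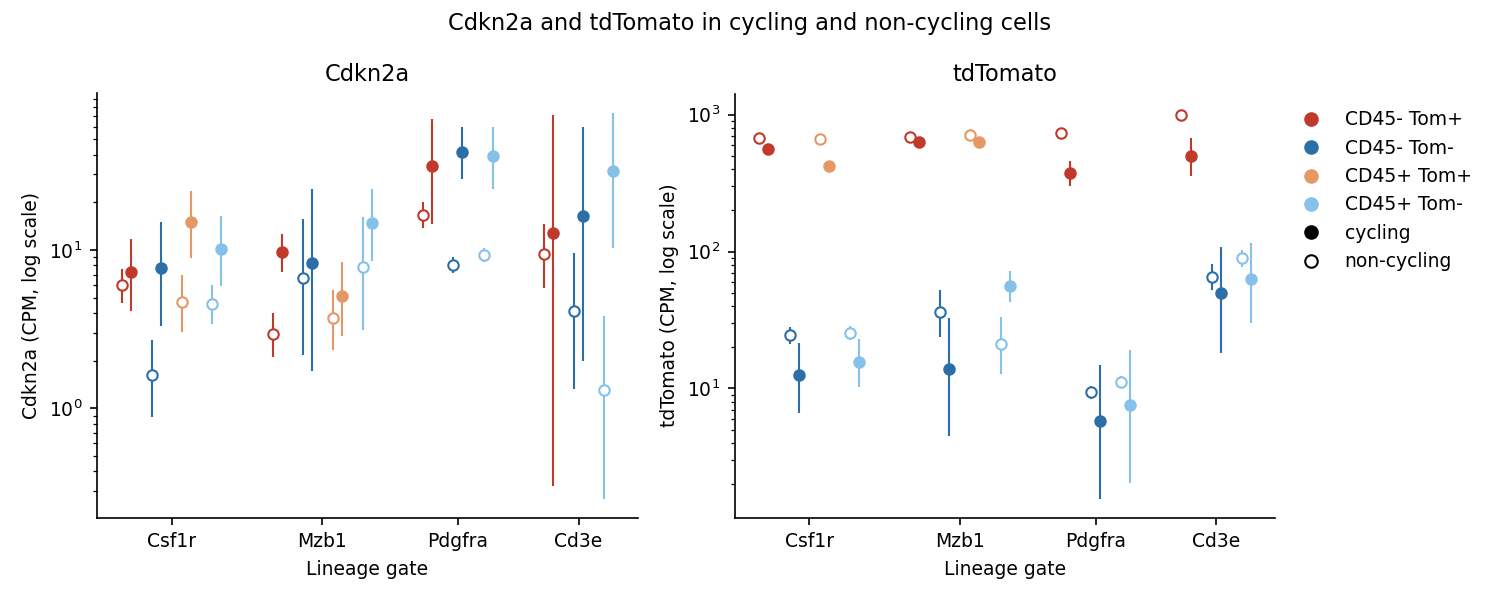
Cdkn2a (left) and tdTomato (right) in CPM on log axes, for cycling (filled) and non-cycling (open) cells of each gate and library, with exact 95% Poisson intervals of the summed counts; libraries with under 5 cycling cells in a gate are not shown. Each filled Cdkn2a point lies above its open partner, and each filled tdTomato point below, except in the Mzb1 gate of CD45+ Tom-.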

How the data were processed

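4 single-cell libraries, 1 per sorted group, were analysed. The authors deposited raw UMI counts per gene and barcode, made per the labels with Cell Ranger 3.0.2 (submitters' processing notes) on mm10 with a tdTomato row; no normalization had been applied. Each library had between 64083756 and 139397501 UMIs. Kept barcodes had more than 1000 but fewer than 7000 genes and less than 8% of UMIs from mitochondrial genes. Cycling cells, lineage gates and gene lists were chosen with earlier results of these data known. UMIs were summed per gate and library over cycling and non-cycling cells, scaled to CPM, and compared as log2 ratios after adding 0.5 UMIs to each sum. Genes of at least 20 CPM on average were held against a log2 ratio of 1 in every library used. The text names the extremes of each list and, per gate, the 5 genes of at least 50 CPM with the highest and the 5 with the lowest mean log2 ratio outside the cycle lists, leaving out mitochondrial, ribosomal, antibody, predicted and gate genes. With 1 library per group no test was possible, and intervals are exact binomial (Clopper-Pearson) or Poisson. Doublets were not removed; Scrublet in scanpy 1.11.5 was an alternative. The scripts were tested on simulated data and ran in Python 3.11.15 with numpy 2.4.6, scipy 1.17.1 and pandas 2.3.3. Promoters were taken from RefSeq. A result of the naming rule that concerns a withheld item is not reported here.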

Additional observations from a re-analysis of the deposited data

Results flagged for a closer look

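Barcodes with 7000 or more genes were kept out of every comparison by the upper gene limit, and cycling cells were frequent among them. By the same Mki67 and Top2a rule, 73 of 227 such barcodes were cycling in CD45- Tom+ (32.2%), 61 of 227 in CD45- Tom- (26.9%), 33 of 91 in CD45+ Tom+ (36.3%) and 86 of 356 in CD45+ Tom- (24.2%). Each share was above that of the kept cells of its library (6.85, 2.82, 7.32 and 3.26%). Among these barcodes the 95% intervals of the 4 libraries (26.1 to 38.7, 21.2 to 33.1, 26.4 to 47.0 and 19.8 to 28.9%) overlapped. Whether such barcodes held 1 or more cells was not tested.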

How the results depend on the processing

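No paired analysis was possible because each group had 1 library. With at least 5 UMIs of Mki67 and Top2a in place of 3, the cycling share was 5.24% in CD45- Tom+, 2.23% in CD45- Tom- and 5.75% in CD45+ Tom+, and the mean share over the libraries 0.687, 5.95, 1.41 and 13.4% in the Pdgfra, Csf1r, Cd3e and Mzb1 gates (from 1.25, 7.22, 2.45 and 15.8%). With over 10 UMIs, chosen after seeing the data, the library shares were 3.72, 1.61, 4.09 and 2.14% and the gate means 0.480, 4.58, 1.02 and 9.80%. Thinned to 5000 UMIs per cell they were 2.56, 1.24, 3.49 and 1.58%, with 0.282, 3.38 and 6.55% in the Pdgfra, Csf1r and Mzb1 gates. With Cdk1 and Birc5 as the rule they were 3.84, 1.86, 4.14 and 2.53%, with 0.971, 4.67, 1.20 and 8.59%; 378 cells were shared, 54% of the cells of the main rule and 86.3% of the others. Without an upper gene limit the library shares were 8.17, 4.10, 8.59 and 4.70% and the Pdgfra mean 2.04%. Without the highest Scrublet scores the shares were 1.77% in CD45- Tom- and 2.19% in CD45+ Tom-, and the Csf1r mean 6.23%. Both Tom+ libraries stayed above both Tom- libraries under each of these.

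The median G2M share of the Mzb1 gate rose from 70.3 to 77.3% when thinned, 76.5% with Cdk1 and Birc5 and 77.0% over 10 UMIs, and that of the Cd3e gate to 78.1 and 77.6% in the last 2. Counts of genes moved more. In the Csf1r gate, raised genes (217) became 465 when thinned, on 2 libraries, and 432 from 5 CPM, and lowered genes (16) became 103 when thinned, 26 without an upper gene limit, 10 without the highest Scrublet scores, 48 with Cdk1 and Birc5, 25 from 5 CPM and 41 over 10 UMIs. In the Mzb1 gate, raised genes (132) became 1123 when thinned, on 1 library, 272 with Cdk1 and Birc5, 366 from 5 CPM and 303 over 10 UMIs. Its lowered genes (2) became 12 from 5 UMIs, 55 when thinned, 6 without the highest Scrublet scores, 11 with Cdk1 and Birc5, 19 from 5 CPM, 17 with CPM averaged over cells, 14 over 10 UMIs and 19 without antibody genes in the totals. Fewer libraries enter where members are lost, so fewer must pass. Of 1946 values of the 200 named gene and gate pairs past log2 1 in each library used, 1945 kept their sign. Cpa3 in the Cd3e gate turned to 0.58 when thinned, on 1 library. Leaving out barcodes shared between libraries changed no share or count past these limits. The 200 pairs were chosen for large ratios in the same cells, so a kept sign was likely. Sizes were less stable. Among all named gene ratios under the alternatives, 619 lay over 1 standard deviation (between libraries) from the main value, and 3270 within it. For list medians these counts were 242 and 569. The Pdgfra and Cd3e values rest on 37 and 26 cycling cells.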
